A study of Mus musculus with 33 samples.

Results

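Stretches of the wild type (WT) mouse embryonic stem cell (mESC) genome that carried H3K27me3 and H3K9me3 together were examined, and of 8161 H3K27me3 domains in WT mESC 3573 were members of this class. A member was a domain shorter than 400 kb, with at least 50% of its base pairs in WT mESC H3K9me3 domains and no overlap with an H3K27me3 domain of Uhrf1 knockout (KO) mESC. Members were thus chosen by their values in the lists of WT H3K27me3, WT H3K9me3 and KO H3K27me3, and these values are given only as a description. Of the other domains, 409 were 400 kb or longer, 641 shorter ones overlapped a KO H3K27me3 domain, and 3538 met the limits on length and on the KO list but had H3K9me3 over less than 50%. These 3538 served as comparison domains, and 2158 of them held no H3K9me3 at all.

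Chromatin was profiled by ChIP-seq, the sequencing of DNA fragments pulled down with an antibody against a histone mark or a bound factor. E14 mESC of WT and Uhrf1 KO genotype were undifferentiated cells grown with leukemia inhibitory factor on gelatin or on plates coated with embryonic fibroblasts, and embryoid bodies (EBs), floating clusters of differentiating stem cells, were taken at weeks 1, 2 and 3 from both genotypes. Of 33 samples, 25 had a list of enriched regions and 8 were inputs that were not used here. Each group was 1 library and the KO was 1 cell line obtained from another group, so replicate spread was not measured, no test was possible, and every 95% interval covers counting error over domains only. The lists hold no expression, so the loss of Uhrf1 itself was not checked.

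H3K27me3 is placed by Polycomb repressive complex 2 and marks the CpG-rich promoters of developmental regulators that stem cells keep silent, often beside H3K4me3, the mark of active or poised promoters. H3K9me3 is placed by enzymes such as Setdb1 and Suv39h and marks heterochromatin over repeats, retroelements and clustered gene families. Uhrf1 reads H3K9me3 and hemimethylated DNA and recruits the maintenance methyltransferase Dnmt1. The repressive marks usually occupy separate territories.

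The following gene starts inside members are shown because they contrast CG-poor starts with CG-richer ones. The sequences are the 250 bases before the annotated start, read 5′ to 3′ on the strand of the gene from the NCBIM37 (mm9) genome, with each CG dinucleotide in capitals. The first group comes from clustered families without H3K4me3 at the start: Olfr151, an olfactory receptor (chr9:37538647-37538896, minus strand), Defb37, a beta-defensin (chr8:18991056-18991305, minus strand), and Cyp2c67, a cytochrome P450 (chr19:39723542-39723791, minus strand). The second group comes from transcription factor genes with WT H3K4me3 at the start: Sox17, a regulator of endoderm (chr1:4486495-4486744, minus strand), and Foxa1, a forkhead pioneer factor (chr12:58647109-58647358, minus strand).
Olfr151: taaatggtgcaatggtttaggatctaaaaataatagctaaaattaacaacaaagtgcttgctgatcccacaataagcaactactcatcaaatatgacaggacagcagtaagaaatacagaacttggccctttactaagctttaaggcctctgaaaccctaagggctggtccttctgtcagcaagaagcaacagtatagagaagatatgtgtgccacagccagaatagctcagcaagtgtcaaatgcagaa
Defb37: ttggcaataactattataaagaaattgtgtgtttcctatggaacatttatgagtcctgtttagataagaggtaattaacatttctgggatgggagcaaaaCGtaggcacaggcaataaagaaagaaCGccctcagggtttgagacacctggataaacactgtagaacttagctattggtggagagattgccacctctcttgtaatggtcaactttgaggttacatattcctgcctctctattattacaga
Cyp2c67: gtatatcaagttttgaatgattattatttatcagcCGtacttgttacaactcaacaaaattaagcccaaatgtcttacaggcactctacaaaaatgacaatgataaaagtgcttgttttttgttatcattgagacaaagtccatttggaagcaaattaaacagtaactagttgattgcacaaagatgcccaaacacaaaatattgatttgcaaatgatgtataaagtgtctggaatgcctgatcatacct
Sox17: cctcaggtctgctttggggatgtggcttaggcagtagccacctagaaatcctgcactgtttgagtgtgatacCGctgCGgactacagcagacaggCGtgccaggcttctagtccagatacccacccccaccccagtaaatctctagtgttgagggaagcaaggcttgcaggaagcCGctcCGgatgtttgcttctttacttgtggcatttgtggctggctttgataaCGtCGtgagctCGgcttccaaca
Foxa1: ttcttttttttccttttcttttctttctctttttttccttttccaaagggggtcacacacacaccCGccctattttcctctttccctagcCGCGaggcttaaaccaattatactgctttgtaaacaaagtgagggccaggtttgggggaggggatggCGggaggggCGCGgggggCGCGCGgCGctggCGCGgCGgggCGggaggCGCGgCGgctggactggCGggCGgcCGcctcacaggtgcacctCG

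The upstream sequence held 0 CG at Olfr151, 1 at Cyp2c67 and 2 at Defb37, and 8 at Sox17 and 21 at Foxa1. In WT mESC H3K9me3 lay over the starts of Olfr151, Defb37, Cyp2c67 and Sox17 but not of Foxa1, and in KO mESC H3K9me3 lay over the same 4 starts. In KO mESC H3K4me3 was called at the start of Sox17 and not at that of Foxa1. The starts of Sox17 and Foxa1 lay in H3K27me3 in all 6 EB lists. The start of Olfr151 and that of Cyp2c67 did so in WT EBs at week 2 alone. That of Defb37 lay in H3K27me3 at weeks 2 and 3 in both genotypes.

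Members were broad. They spanned 360.5 Mb, with a median length of 70.2 kb (quartiles 32.4 and 144 kb, range 1.8 to 399.6 kb), against 46.8 kb for comparison domains and 32.4 kb for those without H3K9me3. The deposited mean read count per 1800 bp bin had a median of 4.67 in members (quartiles 4.05 and 5.67) and 5.07 in comparison domains. H3K9me3 covered 85.0% of the members' base pairs, and 1898 members (53.1%) lay wholly inside it. Just inside the coverage limit were domains at exactly 50% over Slit2, a guidance cue for axons (chr5:48168001-48452400), and over part of Slc7a11, a cystine transporter, without its start (chr3:49989601-50184000). Just outside it were domains at 49.7% over Gypc, Tslp and Wdr36 on chromosome 18 and at 49.6% in a gene-free stretch of chromosome 2.

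The 5 longest members each measured 399.6 kb. They covered Pppde1 on chromosome 1, Kitl, the ligand of the Kit receptor, on chromosome 10, Fzd4, a Wnt receptor, with Prss23 and Me3 on chromosome 7, part of Zmat4, a zinc finger gene, on chromosome 8, and a stretch of chromosome 8 without a coding gene. The nearest longer domains, which did not qualify, were 405 and 406.8 kb. The 5 members with the highest H3K27me3 mean count, 31.4 to 115 per bin, were 1.8 to 16.2 kb long and lay on chromosomes 5, 7, 9 and X, at or in Mid1, Gm10354 and Speer4e or outside coding genes. Speer4e belongs to a family of near-identical copies, and because the authors kept 1 alignment per read, the copy from which such reads came is uncertain. The highest, on chromosome 9 (115 per bin), and the Mid1 domain (61.8) were wholly in H3K9me3 of both mESC genotypes. H3K4me3 of both genotypes covered 94.4% and 100% of them. Whether reads of repeated sequence raised these counts was not tested.

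The lists differed greatly in length, and the values that bear on the shares follow. WT mESC H3K9me3 covered 987.6 Mb in 11285 domains and KO mESC H3K9me3 1086 Mb in 3118 domains of longer median length, 140.4 against 37.8 kb. H3K27me3 covered 959.7 Mb in WT mESC and 84.1 Mb in KO mESC, and 101.3, 1165 and 791.4 Mb in WT EBs at weeks 1, 2 and 3, against 180.1, 466.8 and 419.9 Mb in KO EBs. H3K4me3 was called in WT mESC at the starts of the pluripotency genes Pou5f1, Nanog, Sox2 and Zfp42 but not at Esrrb, was absent at the lineage gene Gata4, and was present at Pax6 and Neurod1, which also carried H3K27me3. Pou5f1, Sox2 and Esrrb lay in WT H3K27me3 domains too. The labelled cell type was checked no further, since the lists hold no expression.

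To ask what became of the second repressive mark without Uhrf1, KO mESC H3K9me3 domains, which took no part in choosing members, were laid over them. Members lost their H3K27me3 call in KO by definition, but most still lay in H3K9me3. A KO H3K9me3 domain touched 2809 of 3573 members (78.6%, interval 77.2 to 79.9), against 54.9% of all H3K27me3 domains and 26.99% of comparison domains (25.6 to 28.5). The difference between members and comparison domains was 51.6 percentage points (49.6 to 53.6), and it was 49.5 points within groups of equal length, 47.1 within chromosomes and 42.2 within groups of equal GC content. Comparison domains were chosen for little or no H3K9me3 in WT, so this difference follows in part from the rule.

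In base pairs, 77.0% of the WT H3K9me3 inside members lay in KO H3K9me3 domains. The value was 35.3% inside comparison domains, 74.8% for WT H3K9me3 outside all H3K27me3 domains and 72.9% for WT H3K9me3 as a whole, while KO H3K9me3 covered 40.9% of the chromosomes. Sequence of members that lay outside WT H3K9me3 was in KO H3K9me3 over 52.3% of its 54.2 Mb. Of the 3467 WT H3K9me3 domains that touched a member, 75.6% met a KO H3K9me3 domain (74.1 to 77.0), against 56.2% of the 4438 that touched no H3K27me3 domain (54.8 to 57.7), which were shorter, with a median of 21.6 against 88.2 kb.

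Taking the marks together, 2574 members (72.0%) had KO H3K9me3 over at least 50% of their length and 2160 (60.5%) lay wholly in it. H3K9me3 over at least 50% without H3K4me3 was the state of 2027 members (56.7%, interval 55.1 to 58.4), and a further 547 (15.3%) combined it with H3K4me3. No H3K27me3, H3K9me3 or H3K4me3 was called in KO mESC at 588 members (16.5%, 15.3 to 17.7), against 1685 comparison domains (47.6%, 46.0 to 49.3). Of these comparison domains, 1143 had held no H3K9me3 in WT either, so the contrast follows in part from the rule and does not measure loss. H3K4me3 alone was called in KO mESC at 176 members (4.93%) and at 898 comparison domains (25.4%).

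**Figure D1:**
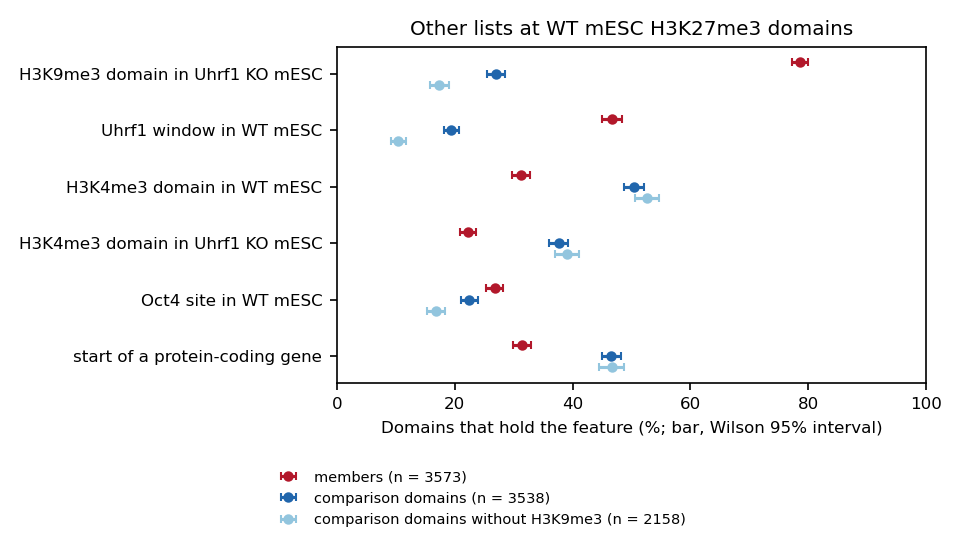
Percentage of members, comparison domains and comparison domains without H3K9me3 (points, with Wilson 95% intervals) that held each feature. Members stood highest for KO H3K9me3 (78.6%) and Uhrf1 windows (46.7%) and lowest for H3K4me3 and coding gene starts.

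Within the members, the share with a KO H3K9me3 domain was greater where WT H3K9me3 covered more. It was 64.1% at a coverage of 50% to below 75% (852 domains), 80.2% at 75% to below 100% (823 domains) and 84.5% at 100% (1898 domains), and the intervals of the last groups, 77.3 to 82.8 and 82.8 to 86.0, met only at their ends. Below the limit it was 42.1% for partly covered domains and 17.3% for those without H3K9me3. H3K4me3 in WT mESC ran the other way along the same groups, from 52.6% without H3K9me3 to 26.6% at full coverage.

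**Figure D2:**
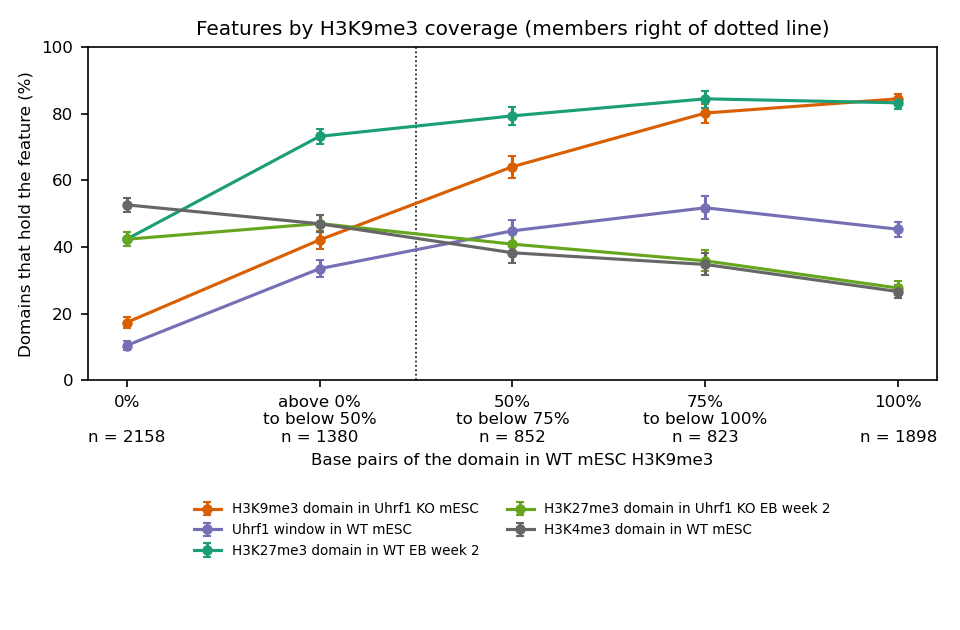
Percentage of H3K27me3 domains holding each of 5 features, by the share of the domain in WT mESC H3K9me3, with Wilson 95% intervals; the dotted line separates comparison domains (left) from members (right). KO H3K9me3 climbed from 17.3% to 84.5% across the groups, while H3K4me3 in WT mESC and H3K27me3 in KO EBs at week 2 ended at 26.6% and 27.7%.

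Uhrf1 occupied members more often than the other domains of the same limits. The Uhrf1 list of WT mESC holds 10 kb windows enriched over input, and 1668 members touched one (46.7%, interval 45.0 to 48.3), against 34.7% of all H3K27me3 domains and 19.4% of comparison domains (18.2 to 20.8). The difference was 27.3 points (25.2 to 29.3), 21.9 within groups of equal length and 18.97 within groups of equal GC content. With windows required over at least 50% of a domain it was 2.29 points (1.66 to 2.96). Windows covered 7.89% of the members' base pairs, 3.34% of those of comparison domains and 5.53% of those of all H3K27me3 domains. The whole list covered 136.4 Mb, where chromosomes 1 to 19, X and Y measure 2655 Mb. Of 13644 Uhrf1 windows, 2986 touched a member (21.9%, interval 21.2 to 22.6) and 926 a comparison domain (6.79%), against 40.6% that touched any H3K27me3 domain. Members spanned 360.5 Mb and comparison domains 264.3 Mb.

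Most of the occupied members were only partly in windows. Among the 1668, the windows took a median of 13.6% of the length, and 111 had at least 50% of it in windows. The 5 with the largest share were wholly in windows and were 9 to 14.4 kb long, on chromosomes 4, 5, 7, 12 and 13. All 5 lay wholly in H3K9me3 in both genotypes and wholly in H3K27me3 in WT EBs at week 2, and 1 of them held the start of a coding gene, Gm3604.

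Members with a window were longer than those without, at a median of 115.2 against 45 kb, so shares were compared within groups of equal length. KO H3K9me3 was then 8.01 points more frequent at members with a window (interval 5.02 to 11), from 85.6% against 72.5% without regard to length. The difference, with a window minus without, was -11.4 points for H3K4me3 in WT mESC (-15.2 to -7.58) and -9.26 points for KO EB H3K27me3 at week 2 (-13.0 to -5.50), where the difference without regard to length had been 4.13 points (34.9% against 30.8%). For WT EB H3K27me3 at week 2 it was 6.41 points (4.26 to 8.55), the only EB list where members with a window stood higher. In WT EBs it was -10.5 points at week 1 and -2.59 at week 3, and in KO EBs -9.37 and -7.00 at these weeks.

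The first mark was then followed into EBs. In WT EBs members were seldom in H3K27me3 at week 1 and mostly so at week 2, when the list was also at its longest. At week 1, 869 members overlapped an H3K27me3 domain (24.3%, interval 22.9 to 25.8), against 37.9% of all domains and 39.8% of comparison domains (38.2 to 41.4). At week 2 the count was 2951 (82.6%, 81.3 to 83.8), against 69.9% of all domains and 54.4% of comparison domains (52.7 to 56.0). At week 3 it was 2531 (70.8%, 69.3 to 72.3), against 72.1% of all and 68.4% of comparison domains (66.9 to 69.9).

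By base pairs, WT EB H3K27me3 took 4.12% of members at week 1, 81.4% at week 2 and 50.8% at week 3. Comparison domains gave 8.71%, 50.8% and 52.8%. Counted as domains, the difference between members and comparison domains at week 2 was 28.2 points (interval 26.2 to 30.3), and it was 21.7 points within groups of equal length and 9.72 points (7.78 to 11.7) within groups of equal GC content. At week 1 the difference of -15.5 points was -17.6 within length groups and -0.0984 (-2.23 to 2.03) within GC groups. At week 3 the difference of 2.44 points was -2.63 within length groups and 8.30 within GC groups, so its direction depended on what was held equal.

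In KO EBs fewer members than in WT EBs overlapped the mark at weeks 2 and 3. At week 1, 771 members overlapped a KO H3K27me3 domain (21.6%, 20.3 to 23.0), against 36.7% of all domains and 41.1% of comparison domains, a difference of -19.5 points that was -1.86 within GC groups (-3.86 to 0.149). At week 2 the count was 1168 (32.7%, 31.2 to 34.3), against 43.6% of all domains and 44.1% of comparison domains (42.5 to 45.8), and at week 3 it was 1297 (36.3%, 34.7 to 37.9), against 39.9% and 32.8% (31.3 to 34.4). The difference from comparison domains at week 3, 3.46 points, was -0.961 within length groups (-3.18 to 1.26), -1.64 below 100 kb and 11.03 within GC groups. The base pairs of members in KO EB H3K27me3 were 5.23%, 21.7% and 26.4% at the 3 weeks. At week 2 the difference from comparison domains was -11.5 points overall and 3.68 points (1.34 to 6.02) within groups of equal GC content, and the part that base composition plays was not tested further.

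**Figure D3:**
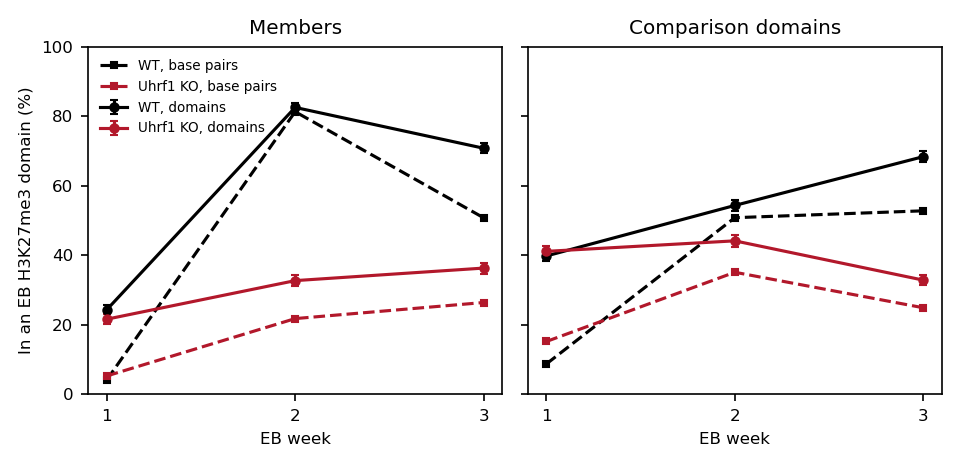
Percentage of members (left) and comparison domains (right) in an H3K27me3 domain of EBs at weeks 1 to 3, in WT (black) and Uhrf1 KO (red), as a share of domains (solid lines, Wilson 95% intervals) and of base pairs (dashed lines). In WT the members reached 82.6% at week 2, while in KO they stayed between 21.6% and 36.3%.

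Counting the same members in both genotypes, 1017 of the 2951 with a WT domain at week 2 also had a KO domain (34.5%, interval 32.8 to 36.2). For comparison domains this was 1035 of 1923 (53.8%, 51.6 to 56.0), a difference of -19.4 points (-22.1 to -16.5) and of -20.5 within groups of equal length. At week 1 the values were 58.9% for members and 78.7% for comparison domains, and at week 3 they were 46.0% and 44.7%, which differed by 1.28 points (-1.49 to 4.05). The total length of the KO list at week 2 was less than that of the WT list, 466.8 against 1165 Mb, and this enters both classes. The shares kept in KO were not taken within groups of equal GC content or by chromosome.

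Single members followed several courses. In WT, 1507 members (42.2%) had H3K27me3 at weeks 2 and 3 but not at week 1, 708 (19.8%) at all 3 weeks, 706 (19.8%) at week 2 alone and 262 (7.33%) at none. In KO, 1769 members (49.5%) had it at no week and 466 (13.0%) at all 3. Of comparison domains, 19.6% had it at weeks 2 and 3 alone in WT, 25.5% at all 3 weeks, 8.37% at week 2 alone and 18.5% at none, and in KO 41.7% had it at no week and 22.1% at all 3. H3K27me3 in all 6 EB lists was found at 324 members (9.07%, 8.17 to 10.1), against 557 comparison domains (15.7%, 14.6 to 17.0), and 215 members (6.02%, 5.28 to 6.85) were in none of the 6, against 499 comparison domains (14.1%, 13.0 to 15.3). The longest members in all 6 lists were the Pppde1 and Fzd4 domains and a domain of 397.8 kb over the vomeronasal receptor genes Vmn2r80 to Vmn2r83.

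H3K4me3 was less frequent at members. In WT mESC an H3K4me3 domain lay in 1117 members (31.3%, 29.8 to 32.8), against 45.5% of all domains and 50.4% of comparison domains (48.8 to 52.1). In KO mESC it lay in 794 (22.2%, 20.9 to 23.6), against 34.1% and 37.7% (36.1 to 39.3). The difference in WT, -19.2 points, was -1.45 (-3.78 to 0.881) within groups of equal GC content, and that in KO, -15.5 points, was -2.37 (-4.45 to -0.285). Members were poorer in GC than comparison domains, with medians of 39.5% and 43.1%, and held 6.08 against 9.35 CG per kb.

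In WT EBs H3K4me3 lay in 1021 members at week 1 (28.6%, against 44.6% of all domains), 1626 at week 2 (45.5%, against 59.4%) and 1308 at week 3 (36.6%, against 52.3%). In KO EBs the counts were 1017 (28.5%, against 40.8%), 1407 (39.4%, against 53.8%) and 1358 (38.0%, against 53.7%). At each of the 6 lists the difference from comparison domains was between -23.5 and -16.7 points, and within groups of equal GC content it was between -6.02 and -3.67 points.

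Members with WT H3K4me3 differed from the rest in EBs. Among the 1117 with the mark, 56.0% had WT EB H3K27me3 at week 1, against 9.89% of the 2456 without it, a difference of 44.4 points within groups of equal length (41.2 to 47.6). In KO EBs at week 2 the shares were 54.1% and 23.0%, and the difference within length groups was 27.6 points (24.2 to 30.9). At WT week 2 the order was opposite, with 76.4% against 85.4%. KO H3K9me3 was found at 77.7% of members with WT H3K4me3 and 79.0% of those without.

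Binding sites of Oct4, Sox2 and Nanog, which maintain pluripotency, were also counted. An Oct4 summit of WT mESC lay in 957 members (26.8%, against 28.0% of all domains), and the difference from comparison domains was 4.31 points overall and -0.455 (-2.51 to 1.60) within groups of equal length. Within groups of equal GC content this Oct4 difference was 7.04 points (4.76 to 9.315). In KO mESC, whose Oct4 list was short, with 576 summits against 12898, a summit lay in 26 members (0.728%, against 1.32%). Sox2 summits lay in 343 members in WT (9.60%, against 13.0%) and 889 in KO (24.9%, against 32.8%). Nanog summits lay in 187 members in WT (5.23%, against 7.87%) and 560 in KO (15.7%, against 21.2%), and the KO lists of both factors were the longer ones, with 20755 against 5190 summits for Sox2 and 10632 against 2390 for Nanog. Within groups of equal GC content the difference from comparison domains was for Sox2 3 points in WT (1.68 to 4.32) and 4.44 in KO (2.38 to 6.503), and for Nanog 0.597 in WT (-0.475 to 1.67) and 2.16 in KO (0.412 to 3.91), where the differences over all domains were -1.23, -7.48, -1.92 and -4.51 points. Within groups of equal length they were -3.01, -10.9, -3.38 and -8.48 points in the same order, so the direction depended on what was held equal.

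Members were poor in genes. The start of a protein-coding gene lay in 1120 members (31.3%, 29.9 to 32.9), against 43.0% of all domains and 46.6% of comparison domains (45.0 to 48.2), and this difference of -15.3 points was 0.176 (-2.19 to 2.54) within groups of equal GC content. The midpoint of 821 members (23.0%) was inside a coding gene, against 1331 comparison domains (37.6%). In all, 2170 of 22380 coding genes (9.70%) started in a member and 2256 in a comparison domain. A window of Uhrf1 lay over 99 of the 2170 starts (4.56%), against 3.74% of all coding gene starts and 1.24% of those in comparison domains.

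Genes of chemosensation and defence were numerous among these starts. Of 1113 olfactory receptor genes, 407 (36.6%) started in a member, in 86 domains, and 16 in a comparison domain. Vomeronasal receptors, which detect pheromones, gave 110 of 322 (34.2%) in 48 domains and 0 in comparison domains. Defensins, antimicrobial peptides, gave 21 of 53 (39.6%) in 5 domains and 6 in comparison domains, and cytochrome P450 genes, which oxidise steroids and foreign compounds, 21 of 98 (21.4%) in 16 domains and 4. Interleukins and chemokines gave 21 of 83 (25.3%) and 13. Members were not the only H3K27me3 domains to hold such starts. In H3K27me3 domains outside both classes lay a further 237 olfactory receptor, 26 vomeronasal receptor and 15 cytochrome P450 starts. Interleukins and chemokines gave 13 there and defensins 0. Genes of a cluster share a domain and are not separate observations. Several defensins share a domain on chromosome 8, where members were 90.15% of both classes, and family shares without that chromosome were not taken.

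Families of developmental regulators had fewer starts in members than in comparison domains. Homeobox genes gave 9 starts in members and 24 in comparison domains, forkhead genes 5 and 10, Sox genes 2 and 7, Wnt ligands and Frizzled receptors 2 and 12, T-box genes 0 and 6, and GATA genes 0 and 3. As a share of each list, members held the starts of 6.77% of homeobox, 11.6% of forkhead and 10.5% of Sox genes, against 9.70% of all coding genes. A further 92 of 133 homeobox genes started in H3K27me3 domains outside both classes. Zfp zinc finger genes gave 29 and 25, keratins and keratin-associated proteins 4 and 6, serpins 5 and 6, potassium channels 11 and 24, ligand-gated ion channels 3 and 15, cadherins 6 and 4, solute carriers 26 and 53, germline genes 4 and 4, and imprinted genes 0 and 2. All 24 clustered protocadherins and 68 of 97 keratin and keratin-associated genes started in H3K27me3 domains outside both classes.

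**Figure D4:**
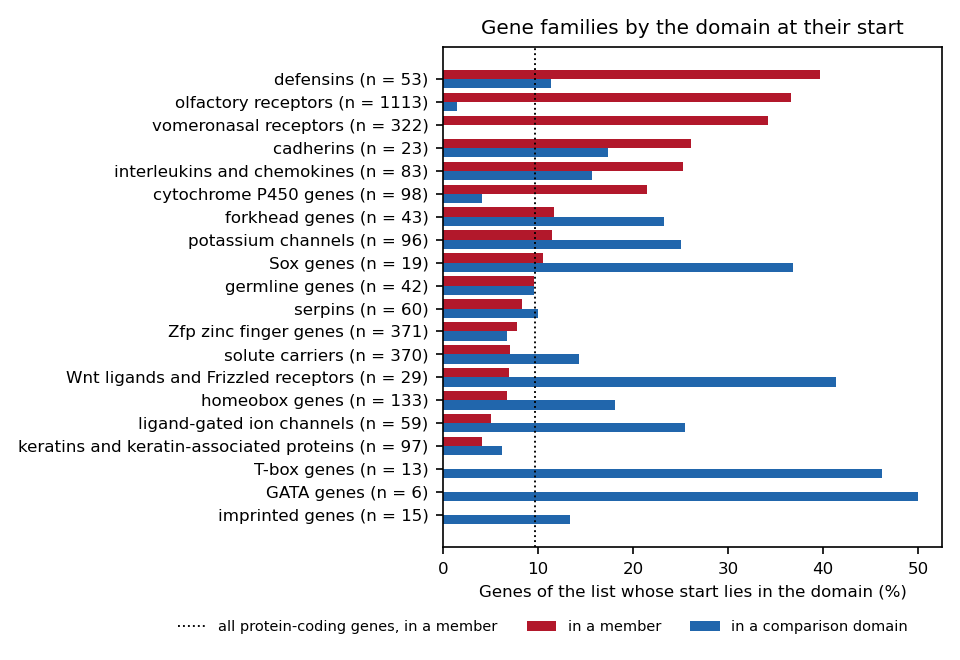
Percentage of the genes of each list whose start lay in a member (red) or in a comparison domain (blue), with the share of all protein-coding genes that started in a member as a dotted line (9.70%). Olfactory receptors, vomeronasal receptors and defensins stood at 36.6%, 34.2% and 39.6% in members.

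The state of the starts was set beside the shares over all 2170 starts in members, which were 71.8% for KO mESC H3K9me3, 75.3% and 34.9% for WT and KO EB H3K27me3 at week 2, and 31.3% for WT mESC H3K4me3. Of the 407 olfactory receptor starts in members, 362 lay in KO mESC H3K9me3, 389 in WT EB H3K27me3 at week 2, 77 in KO EB H3K27me3 at week 2 and 6 in WT mESC H3K4me3. Of the 110 vomeronasal receptor starts, 110 lay in KO H3K9me3, 103 in WT EB H3K27me3 at week 2 and 33 in KO EB H3K27me3 at week 2. Of 29 Zfp starts, 26 lay in KO H3K9me3, and unlike the receptor genes 25 had WT H3K4me3 and 23 KO H3K4me3. All 9 homeobox starts lay in KO EB H3K27me3 at weeks 2 and 3, and 7 had WT mESC H3K4me3.

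Over all 2170 starts in members, 1739 (80.1%) lay in WT H3K9me3, 1557 (71.8%) in KO H3K9me3, 679 (31.3%) in WT H3K4me3 and 525 (24.2%) in KO H3K4me3. In comparison domains 1315 of 2256 starts (58.3%) had WT H3K4me3. Of the 679 starts with WT H3K4me3 in members, 502 had H3K4me3 in KO (73.9%, 70.5 to 77.1), against 66.3% in comparison domains (63.7 to 68.8). With or without KO H3K4me3, 412 of the 679 (60.7%) were in KO H3K9me3, against 18.9% of such starts in comparison domains. Of the 1491 without WT H3K4me3, 23 had H3K4me3 in KO mESC (1.54%) and 197 in a WT EB list (13.2%), against 7.65% and 36.9% of such starts in comparison domains. The 250 bases upstream held a median of 2 CG at starts in members, 11 at starts in comparison domains and 8 over all coding genes. Within members the median was 12 at starts with WT H3K4me3, 1 at starts without it and 1 at olfactory receptors. The sequences above were picked to show this contrast, and some other starts in named domains went the other way. Foxl2 held 22 CG and Sycp1 17 without WT H3K4me3, and Gm10800 and Gm10801 held 2 each with it. Of the 5 forkhead starts in members, 1 had WT H3K4me3.

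Named domains showed the range. The Olfr151 domain (chr9:37477801-37863000), with 10 olfactory receptor starts, was in H3K9me3 over 81.8% in WT and 89.7% in KO and in WT EB H3K27me3 over 0.454%, 98.1% and 47.2% at weeks 1, 2 and 3, and in KO EBs over 0%, 0% and 7.48%. The Defb37 domain (chr8:18957601-19229400), with 12 coding starts, was wholly in WT H3K9me3 and over 57.6% in KO, and in KO EB H3K27me3 over 76.2% at week 2. The Sox17 domain (chr1:4447801-4599000) had a mean count of 10.3 per bin, was wholly in H3K9me3 in both genotypes, and was in WT EB H3K27me3 over 34.7%, 100% and 86.9% and in KO EB H3K27me3 over 22.6%, 26.2% and 53.6%. H3K4me3 covered 9.46% of it in WT mESC and 18.1% in KO mESC.

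Domains of developmental regulators differed in their H3K9me3 cover in KO. Beside the Sox17 domain, KO H3K9me3 covered 100% of the domains of Sox6 and Fzd4, 75.5% of that of Isl2 and 26.5% of that of Foxl2. The Foxa1 domain (chr12:58572001-58924800) was in WT H3K9me3 over 52.0% and in KO H3K9me3 over 0%, and the domain of Fzd1, a Wnt receptor (chr5:4730401-4843800), over 98.4% and 0%. The domains of Grik2, a kainate receptor subunit, Kcnh7, a potassium channel, and Cdh7, a cadherin, were wholly in KO H3K9me3 and wholly in WT EB H3K27me3 at week 2, and in KO EB H3K27me3 at week 2 they were covered over 20.5%, 25.6% and 0%. The other named domains of these families differed. Those of Gria1, Kcne4 and Cdh16 were in KO H3K9me3 over 100%, 37.1% and 33.0%. At week 2 they were in WT EB H3K27me3 over 39.3%, 64.7% and 69.3%, and in KO EB H3K27me3 over 100%, 18.2% and 75.6%. Sycp1 and Sycp2, of the synaptonemal complex, lay in domains covered by KO H3K9me3 over 100% and 59.7%.

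The 5 members with a coding start and the highest H3K4me3 mean count, 34.0 to 164 per 1300 bp bin, were all wholly in WT H3K9me3. They held Gm10800 and Gm10801 on chromosome 2, the ribonuclease genes Ear10, Ang5 and Ang6 on chromosome 14, Gm9897 on chromosome 5, the interferon-induced GTPase gene Irgm1 on chromosome 11, and Olfr263 and Olfr1368 on chromosome 13. H3K4me3 of WT mESC covered 1.90% to 43.1% of these domains. The Gm10800 and Gm10801 domain stood highest, at 164 against 65.8 for the next. In WT mESC both of its starts lay in H3K4me3, H3K9me3 and a Uhrf1 window at once. The 250 bases upstream of Ang5 and Ang6 were identical, so the copy from which such reads came is uncertain. Whether reads of repeated sequence raised the counts of these domains was not tested.

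Members were spread unevenly over the chromosomes. Chromosome 8 held 247 members and 27 comparison domains and chromosome 11 held 195 and 31, so that members were 88.4% of both classes there (interval 85.3 to 90.9), against 48.5% on the other chromosomes apart from X (47.3 to 49.7) and 25.3% to 60.5% on each other autosome. Chromosome X held 14 members and 167 comparison domains (7.73%, 4.66 to 12.6). The lists that chose the members moved with this. WT H3K9me3 covered 81.0% of chromosome 8, 76.2% of chromosome 11 and 2.30% of X, against 16.6% to 46.9% of the other autosomes, and WT H3K27me3 covered 64.1%, 56.2% and 6.81%, against 22.0% to 45.0%. Their part in the number of members was not tested, nor was the copy number of these chromosomes in either line.

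**Figure D5:**
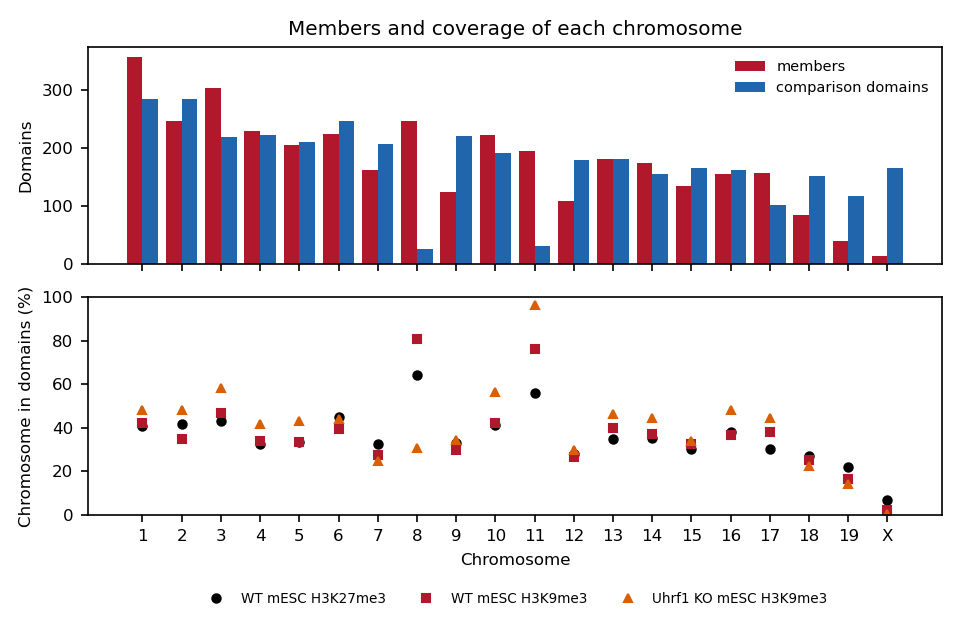
Number of members and comparison domains on each chromosome (top) and percentage of the chromosome in 3 domain lists of mESC (bottom). Chromosomes 8 and 11 held 247 and 195 members, and WT H3K9me3 covered 81.0% and 76.2% of them, while KO H3K9me3 covered 30.6% and 96.3%.

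KO H3K9me3 differed between these chromosomes, at 30.6% of chromosome 8 and 96.3% of chromosome 11, against 14.2% to 58.5% of the other autosomes and 0.298% of X. The shares were therefore also taken without chromosomes 8, 11 and X. Over the remaining 3117 members and 3313 comparison domains, KO H3K9me3 was found at 80.3% and 27.8%, Uhrf1 windows at 49.7% and 19.2%, WT EB H3K27me3 at week 2 at 85.0% and 56.6% and KO EB H3K27me3 at week 2 at 28.6% and 45.9%. On chromosomes 8 and 11 the 442 members had KO H3K9me3 at 67.9% and Uhrf1 windows at 25.6%, and 61.1% had WT EB H3K27me3 at week 1, against 19.1% of members elsewhere. The 58 comparison domains there had KO H3K9me3 at 55.2%, a difference of 12.7 points (-0.185 to 26.1) against 52.5 points elsewhere, and WT EB H3K27me3 at week 1 at 75.9%. For KO EB H3K27me3 at week 2 the members of chromosomes 8 and 11 stood at 62.2% and the comparison domains at 56.9%, a difference of 5.32 points (-7.46 to 18.8), against -17.3 points elsewhere.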

How the data were processed

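ChIP-seq of histone marks, Uhrf1 and pluripotency factors in WT and Uhrf1 KO mESC and EBs was analysed from the deposited region lists. The authors mapped reads to mm9 with Bowtie2 2.1.0, keeping 1 alignment per read, and called histone domains with RSEG against input and factor summits with MACS, 1 library at a time. In the deposited histone lists the signal is the mean read count per bin and the score is larger for domains of more bins; in the factor lists the signal is the read count at the summit. Bins differ between lists, so signal and score ranked or filtered domains within a list only. Uhrf1 regions are 10 kb windows. The lists give no read totals, and depth per sample was not used here.

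Features overlapped at 1 shared bp. Gene starts came from GENCODE on NCBIM37, whose chromosome ends no H3K27me3 domain passed. Shares have Wilson and differences Newcombe 95% intervals; differences within 5 groups of length or GC content (cut at the members' quintiles), or within chromosomes, were weighted by members, with normal intervals, and left out groups with fewer than 5 domains of a class. The score is missing from the Uhrf1 list and from gene starts. Alternatives were coverage of at least 75%, overlap over at least 50%, domains above the median score, domains shorter than 100 kb, domains whatever the KO list, and length groups. Grouping by chromosome and GC content and leaving out chromosomes were chosen after seeing the data. The members and gene lists were chosen with earlier results of these data known.

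Named domains were the 5 longest, the 5 of highest mean count, the 5 most in Uhrf1 windows, the 5 of highest H3K4me3 with a coding start, the 3 longest in all EB lists, those of the 2 genes of each family in the longest members, and those nearest the limits; the text gives a selection of the family genes, made after their values were seen, and the others are not reported here. Python 3.11.15, numpy 2.4.6 and matplotlib 3.10.9 were used. Overlaps and intervals were tested on simulated data.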

Additional observations from a re-analysis of the deposited data

How the results depend on the processing

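The 11 differences between members and comparison domains (percentage points, EB standing for H3K27me3) were recomputed 85 times. In 25 the value stayed inside the interval of the reported difference, including all 11 with domains kept whatever the KO list, in 53 it left the interval without changing sign, and in 7 it changed sign. With a coverage of at least 75% it was 56.2 for KO H3K9me3, 0.214 for WT EB week 3, -22.0 for KO EB week 1, -14.0 for KO EB week 2, -18.0 for KO H3K4me3 and -18.2 for gene starts. With overlap counted only over at least 50% of a domain it was 2.29 for Uhrf1 windows, -7.33 for WT EB week 1, 34.7 for WT EB week 2, -13.0 for KO EB week 1, -14.3 for KO EB week 2 and 0.208 for KO EB week 3, and the sign changed to -2.67 for WT EB week 3. Above the median score of each list it was 29.9 for Uhrf1 windows, 31.9 for WT EB week 2, 0.172 for WT EB week 3, -16.8 for KO EB week 1, -14.2 for KO EB week 2, -4.21 for WT H3K4me3, -3.84 for KO H3K4me3 and -10.6 for gene starts. Below 100 kb it was 20.7 for Uhrf1 windows, -18.2 for WT EB week 1, 30.4 for WT EB week 2, -15.8 for KO EB week 2, -23.1 for WT H3K4me3, -18.0 for KO H3K4me3 and -21.3 for gene starts, and the sign changed to -2.16 for WT EB week 3 and -1.64 for KO EB week 3. Within length groups it was 49.5 for KO H3K9me3, 21.9 for Uhrf1 windows, -17.6 for WT EB week 1, 21.7 for WT EB week 2, -22.0 for KO EB week 1, -15.3 for KO EB week 2 and -17.7 for gene starts, and the sign changed to -2.63 for WT EB week 3 and -0.961 for KO EB week 3. Within chromosomes it was 47.1 for KO H3K9me3, 29.5 for Uhrf1 windows, -20.1 for WT EB week 1, 0.129 for WT EB week 3, -23.8 for KO EB week 1, -14.3 for KO EB week 2, 0.583 for KO EB week 3, -23.8 for WT H3K4me3, -18.4 for KO H3K4me3 and -17.5 for gene starts. Within GC groups it was 42.2 for KO H3K9me3, 18.97 for Uhrf1 windows, -0.0984 for WT EB week 1, 9.72 for WT EB week 2, 8.30 for WT EB week 3, -1.86 for KO EB week 1, 11.03 for KO EB week 3, -1.45 for WT H3K4me3 and -2.37 for KO H3K4me3, and the sign changed to 3.68 for KO EB week 2 and 0.176 for gene starts. The cause of these shifts was not tested. KO H3K9me3, Uhrf1 windows and WT EB week 2 were higher in members under every alternative. For KO H3K9me3 each alternative kept the rule that gave comparison domains less H3K9me3 in WT. EB week 3 changed sign with length in both genotypes, and with overlap in WT. H3K4me3, week 1 and gene starts came close to 0 within GC groups. No paired analysis was possible because each group held 1 library, and leaving out a replicate was not possible. A list of regions gives no depth, so the absence of a call does not show the absence of a mark, and the long WT list of week 2 and the short KO mESC H3K27me3 list bear on each share that uses them.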
